A study of Mus musculus with 23 samples.

Results

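The 10 genes described here encode the enzymes that write, copy and remove cytosine methylation in mouse DNA, together with their closest cofactors: Dnmt1, Dnmt3a, Dnmt3b, Dnmt3l, Uhrf1, Uhrf2, Tet1, Tet2, Tet3 and Tdg. They were chosen by name, not by their values, from the 53607 gene rows of the count table, of which 20372 passed a filter on low counts and were tested. All 10 passed that filter, with at least 67 estimated counts per library for the scarcest of them, Dnmt3l.

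Methyl groups are placed on CpG sites de novo by DNMT3A and DNMT3B, which the catalytically inactive cofactor DNMT3L assists, and are copied to the new DNA strand at replication by DNMT1, which UHRF1 brings to hemimethylated sites. TET enzymes oxidise 5-methylcytosine, and the glycosylase TDG excises some of the oxidised products, after which repair restores an unmethylated cytosine. Naive mouse embryonic stem cells kept with inhibitors of MEK and GSK3 are known for low genome-wide methylation, and the move towards an epiblast-like state is known for a strong rise of the de novo enzymes.

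RNA was sequenced from 23 libraries of mouse embryonic stem cells in 8 groups. Every group, including the libraries labelled WT, came from a Raslox/lox background that lacks H-Ras and N-Ras, carries a conditional allele of the remaining RAS gene and expresses a tamoxifen-activated Cre from a ubiquitin promoter (Ubiq-CreERT2). Cells with ERF, a repressor of the ETS family that ERK signalling inactivates, are called parental when untreated and RAS-deleted after 4-hydroxytamoxifen (OHT) for 6 days. Cells labelled ERF KO are called ERF-knockout when untreated and double-mutant after the same OHT treatment. OHT itself and the loss of RAS cannot be told apart, since every RAS-deleted group received the drug and no RAS-present group did. Each of these 4 genotypes was sampled in 2iL, which combines LIF with inhibitors of MEK and of GSK3, and after 48 hours in FA, which holds FGF2 and Activin A and induces epiblast-like cells. Groups held 3 libraries, except the parental group in FA, which held 2. The labels do not say whether replicates were separate cultures or how many clones each knockout represents, so p-values measure the spread between these samples only.

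Libraries held 16.2 to 29.9 M (mega) estimated counts. Erf RNA was not lower in libraries labelled ERF KO in 2iL (mean 116.0 CPM, counts scaled to library size, in ERF-knockout against 77.6 CPM in parental cells), and in FA it was 57.5 against 63.1 CPM with RAS present and 60.6 against 69.7 CPM with RAS deleted. Hras and Nras counts were present in every group, so genotypes are given as labelled. Nras varied most among the 2iL libraries without ERF, from 7.74 to 43.6 CPM in ERF-knockout and from 5.32 to 52.3 CPM in double-mutant ones. The naive markers Zfp42, Klf4, Esrrb, Tfcp2l1 and Nanog summed to 2269 to 2929 CPM over the 2iL libraries, and Pou5f1 and Sox2 were expressed in every group. The replicate 1 library of each of the 4 groups with ERF stood apart from the other 19 libraries by a raised mean expression of 428 genes on chromosome 8 (0.30 to 0.37 on the log2 scale, against -0.06 to 0.04). None of the 10 genes lies on that chromosome, and without those 4 libraries 19 of 180 gene results were gained as passing and 8 were lost. In these bulk samples, fewer cells of a type and less RNA per cell cannot be told apart.

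The starts of 3 genes are shown. Dnmt3b and Dnmt3l moved most between the media in parental cells, and 1 window of Uhrf1 held the only match to the cell cycle motif searched. Each window runs from 250 bases before to 50 bases after a transcript start, from RefSeq on GRCm38.p6, 5' to 3' on the gene's strand. Capitals mark CpG in the first pair and the E2F match in the last.
Dnmt3b (chr2:153649199-153649498, plus strand): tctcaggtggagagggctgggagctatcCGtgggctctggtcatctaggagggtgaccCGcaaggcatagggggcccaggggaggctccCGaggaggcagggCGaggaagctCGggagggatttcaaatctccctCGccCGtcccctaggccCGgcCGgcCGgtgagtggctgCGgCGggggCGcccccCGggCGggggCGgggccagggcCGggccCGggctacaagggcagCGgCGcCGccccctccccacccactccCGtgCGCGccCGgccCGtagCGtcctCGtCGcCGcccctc
Dnmt3l (chr10:78042037-78042336, plus strand): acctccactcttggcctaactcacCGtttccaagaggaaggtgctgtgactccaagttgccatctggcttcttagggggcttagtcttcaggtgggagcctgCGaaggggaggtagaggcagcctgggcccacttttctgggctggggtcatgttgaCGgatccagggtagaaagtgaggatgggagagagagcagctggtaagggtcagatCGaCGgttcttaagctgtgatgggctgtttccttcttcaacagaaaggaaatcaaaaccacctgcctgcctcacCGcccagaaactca
Uhrf1 (chr17:56303087-56303386, plus strand): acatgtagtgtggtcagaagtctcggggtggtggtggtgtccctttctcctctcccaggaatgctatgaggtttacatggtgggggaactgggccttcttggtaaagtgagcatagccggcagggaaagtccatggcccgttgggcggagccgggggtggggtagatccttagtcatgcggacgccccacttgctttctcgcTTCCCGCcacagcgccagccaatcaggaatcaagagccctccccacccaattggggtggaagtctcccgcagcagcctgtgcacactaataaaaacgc
The Dnmt3b window held 30 CpG, more than 88.3% of the 32851 windows in the table, whereas the Dnmt3l window held 6, against a median of 7.0 over those windows. Other annotated starts of Dnmt3l held 4 and 3 CpG, and the Tet2 window held 57. The motif CCGGAAG, a core bound by ETS factors, was searched on both strands and was present in 0 of the 17 windows of the 10 genes and in 8.86% of all windows. GCGGGAA, a form bound by E2F factors, was present in 1 of the 17, the Uhrf1 window shown, where it reads as its reverse complement, and in 4.6% of all windows. The other annotated start of Uhrf1, with 33 CpG, held no such match. These matches describe letters in the windows and were not tested for binding.

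Between 2iL and FA the parental cells raised all 3 genes of the de novo machinery and lowered Dnmt1, Uhrf1 and Tet2. Dnmt3l, the cofactor, stood at 3.36, 3.99 and 4.37 CPM in the parental 2iL libraries and at 276.4 and 394.4 CPM in FA. Dnmt3b, a de novo methyltransferase, stood at 34.7, 59.3 and 65.4 CPM in 2iL and at 437.2 and 463.0 CPM in FA. Dnmt3a, the other de novo methyltransferase, stood at 56.6, 42.0 and 41.2 CPM in 2iL and at 295.4 and 234.9 CPM in FA. For each of the 3 genes every FA library lay above every 2iL library; 9 of the 10 genes, and 60.7% of all genes tested, had groups without overlap in this comparison. The rise was 86.5-fold for Dnmt3l (log2 fold change 6.43, SE 0.34, adjusted p = 8.97e-11 by edgeR's quasi-likelihood test), 8.50-fold for Dnmt3b (3.09, SE 0.32, adjusted p = 5.21e-07) and 5.68-fold for Dnmt3a (2.50, SE 0.13, adjusted p = 5.18e-13).

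Tdg, the glycosylase, also rose past 2-fold in the parental cells, from 28.6, 31.5 and 28.8 CPM to 60.2 and 61.1 CPM (log2 fold change 1.03, SE 0.10, adjusted p = 4.7e-09, edgeR). Uhrf2, a relative of Uhrf1, rose by 0.64 (SE 0.08) on the log2 scale and Tet3 by 0.44 (SE 0.10). The maintenance genes moved the other way: Dnmt1 fell by 0.51 (SE 0.07) and Uhrf1 by 0.45 (SE 0.10). Tet2 fell by 0.94 (SE 0.11), from between 239.1 and 306.2 CPM to 156.6 and 126.8 CPM. Tet1, at 576.4 to 736.8 CPM in 2iL and 637.2 and 533.5 CPM in FA, did not pass (log2 fold change -0.18, adjusted p = 0.289, edgeR), and its groups overlapped. It passed as lower with the length offset (-0.31, adjusted p = 0.0263) and without the replicate 1 libraries of the groups with ERF (-0.43, adjusted p = 0.00395) or of every group (-0.42, adjusted p = 0.00114, each by edgeR). With an offset for effective transcript length the rise of Tet3 was 0.20 (edgeR adjusted p = 0.179).

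In the parental cells 9 of the 10 genes passed the test at an adjusted p under 0.05 (6 higher, 3 lower), against 49.5% of all genes tested, and 4 also reached 2-fold, against 24%. The RAS-deleted cells gave 9 genes passing (6 higher, 3 lower; 43.0% of all genes) and 4 at 2-fold (16.5%). The ERF-knockout cells gave 10 (6 higher, 4 lower; 46.9%) and 4 at 2-fold (19.7%), and the double mutants gave 10 (6 higher, 4 lower; 55.7%) and 5 at 2-fold (24.9%). The median log2 fold change of the 10 genes was 0.54, 0.41, 0.38 and 0.63 in the same order, beside 0.03, 0.01, 0.02 and 0.03 over all genes tested.

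Cell type markers moved between the media in the same parental libraries. The 5 naive markers all passed as lower and the 3 epiblast-like markers (Fgf5, Otx2 and Pou3f1) all as higher, and both general pluripotency markers, Pou5f1 and Sox2, passed as lower. Of 4 primitive endoderm markers (Gata4, Gata6, Sox17 and Pdgfra) 3 passed as higher, with sums of 11.2 to 19.4 CPM in 2iL and 39.5 to 75.9 CPM in FA. Of 3 germ layer markers (T, Sox1 and Foxa2) 2 passed as higher, with sums of 8.39 to 13.2 CPM and 41.2 to 44.5 CPM. Of 4 trophoblast markers (Cdx2, Elf5, Gata3 and Tfap2c) 2 passed as lower, with sums of 107.7 to 125.8 CPM and 11.3 to 16.2 CPM. Most of each sum was Tfap2c (means of 111.0 CPM in 2iL and 11.4 CPM in FA), whereas Cdx2 and Elf5 had means of at most 0.571 CPM. Of 3 fibroblast markers tested (Col1a1, Col1a2 and Thy1) 1 passed as higher, and the part of these lists in the medium responses of the 10 genes was not tested.

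**Figure D1:**
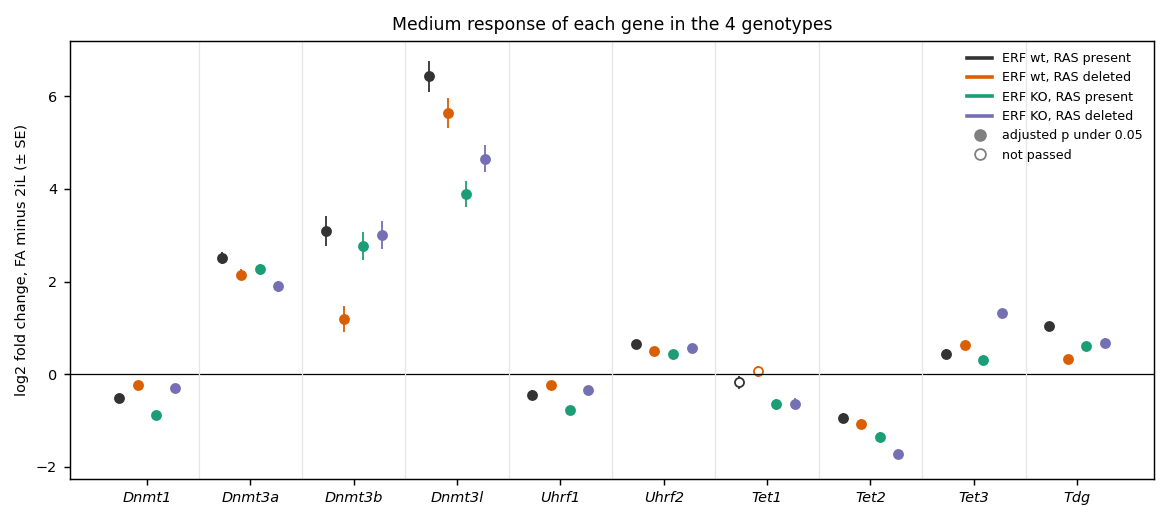
Log2 fold change between FA and 2iL (vertical axis, with SE) for each of the 10 genes in the 4 genotypes; filled points passed at an adjusted p under 0.05 and open points did not. Dnmt3a, Dnmt3b and Dnmt3l lie above 0 in every genotype, Dnmt3b lowest in the RAS-deleted cells at 1.19, and Tet2 lies below 0 in every genotype.

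Expressed per transcript length, the make-up of the DNMT family turned over between the media. In TPM, a transcript level scaled for length and depth, Dnmt1 made up 69.1% ± 1.31 (SD, n = 3) of the summed level of Dnmt1, Dnmt3a, Dnmt3b and Dnmt3l in parental 2iL libraries, and 10.4% ± 1.66 (SD, n = 2) in FA. Dnmt3l went from 2.40% ± 0.294 to 45.9% ± 7.76 of the same sum, and Dnmt3b from 14.7% ± 4.16 to 26.3% ± 1.17. The sum itself went from 100.6 ± 7.70 TPM to 470.8 ± 19.1 TPM. In FA the RAS-deleted cells had a sum of 317.7 ± 108.3 TPM (n = 3), of which Dnmt3b was 11.1% ± 3.25 and Dnmt1 22.5% ± 7.51. Among the oxidases Tet1 was the most abundant per length in every group, at 73.0% to 84.9% of the summed Tet level.

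Dnmt3b was the gene whose FA level depended most on RAS when ERF was present. In FA its 3 RAS-deleted libraries stood at 62.0, 104.6 and 187.2 CPM, against 437.2 and 463.0 CPM in the parental libraries. The groups did not overlap, as for 7 of the 10 genes and 53.1% of all genes tested, and the replicate 1 library was the lowest of the RAS-deleted group. The difference was 3.81-fold (log2 fold change -1.93, SE 0.31, adjusted p = 8.94e-05, edgeR). Without the replicate 1 libraries of the groups with ERF it was -1.65 (SE 0.22, adjusted p = 7.59e-05 by edgeR). Compared with RAS-deleted cells in 2iL, at 44.0, 57.1 and 54.1 CPM, the FA libraries were higher by 2.28-fold (log2 fold change 1.19, SE 0.29, adjusted p = 0.00312, edgeR). Without the RAS-deleted FA replicate 3, the highest of that group, the rise was 0.69 on the log2 scale, under 2-fold, and still passed. With the model restricted to those groups that rise missed the threshold (edgeR adjusted p = 0.0508), as it did in the blocked fit, where it was 1.07 (adjusted p = 0.0614). The medium response itself was smaller in RAS-deleted than in parental cells by 1.90 on the log2 scale (log2 difference -1.90, SE 0.42, adjusted p = 0.00328, edgeR).

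With ERF knocked out, Dnmt3b in FA did not pass for RAS deletion. The ERF-knockout libraries stood at 307.5, 281.0 and 325.0 CPM and the double mutants at 332.4, 346.5 and 340.0 CPM. The fitted log2 difference was 0.16, with a 95% interval from -0.38 to 0.70 (adjusted p = 0.717, edgeR), although the groups did not overlap (7 of the 10 genes and 46.9% of all genes). The effect of RAS deletion in FA differed between the ERF genotypes by 2.09 (SE 0.41, adjusted p = 0.00118 for the interaction, edgeR). Among RAS-deleted cells in FA, those without ERF held 2.88-fold more Dnmt3b than those with it (log2 fold change 1.52, SE 0.28, adjusted p = 0.000353, edgeR), and the groups did not overlap (7 of the 10 genes and 51.2% of all genes). The response to FA was likewise larger in the double mutants than in the RAS-deleted cells, by 1.81 (SE 0.41, adjusted p = 0.00325, edgeR). With RAS present, ERF knockout in FA gave -0.56 for Dnmt3b (95% interval -1.16 to 0.03, adjusted p = 0.271, edgeR), although the groups did not overlap (8 of the 10 genes and 38.9% of all genes). It passed when edgeR was fitted to those groups alone (-0.57, adjusted p = 0.0213) and without the count filter (-0.56, adjusted p = 1.95e-07).

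Prdm14, known as a repressor of Dnmt3b in naive cells, stood at 27.6 ± 7.23 CPM (SD, n = 3) in RAS-deleted FA libraries, against 0.704 ± 0.124 CPM (n = 2) in parental and 1.11 ± 0.466 CPM (n = 3) in double-mutant FA libraries. In 2iL it was lower without ERF, at 13.8 ± 2.37 CPM in ERF-knockout against 35.2 ± 4.64 CPM in parental and at 12.6 ± 1.94 CPM in double-mutant against 37.5 ± 1.59 CPM in RAS-deleted libraries. The Dnmt3b means in the same 2iL groups were 44.6 against 53.1 CPM and 42.4 against 51.7 CPM. The 5 naive markers summed to between 999.5 and 1549 CPM in RAS-deleted FA libraries, against 181.3 to 194.3 CPM in parental and 255.9 to 268.9 CPM in double-mutant FA libraries. The epiblast-like markers summed to between 40.4 and 103.3 CPM, 111.1 and 156.4 CPM and 129.2 and 140.7 CPM in the same groups. On RAS deletion in FA with ERF present, where 41.3% of all genes passed, 5 of 5 naive markers passed as higher and 2 of 3 epiblast-like markers as lower, with 1 higher. In that comparison 4 of 4 primitive endoderm markers passed as lower, and of 4 trophoblast markers 3 passed as higher and 1 as lower. The germ layer markers Sox1 and Foxa2 passed as lower and T did not pass, and Col1a1 and Col1a2, 2 of 3 fibroblast markers tested, passed as lower. Of the general pluripotency markers Sox2 passed as higher (1.64, SE 0.13) and Pou5f1 did not pass. On ERF knockout in FA with RAS deleted, where 42.8% of all genes passed, 5 of 5 naive and 2 of 2 general pluripotency markers passed as lower. Epiblast-like markers gave 2 higher and 1 lower, and trophoblast markers 1 higher and 2 lower. Primitive endoderm (1 of 4), germ layer (1 of 3) and fibroblast markers (2 of 3 tested) passed as higher, with 0 lower. Naive markers were thus high in the same libraries in which Dnmt3b was low, and the part of Prdm14 or of these marker lists in the Dnmt3b result was not tested.

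**Figure D2:**
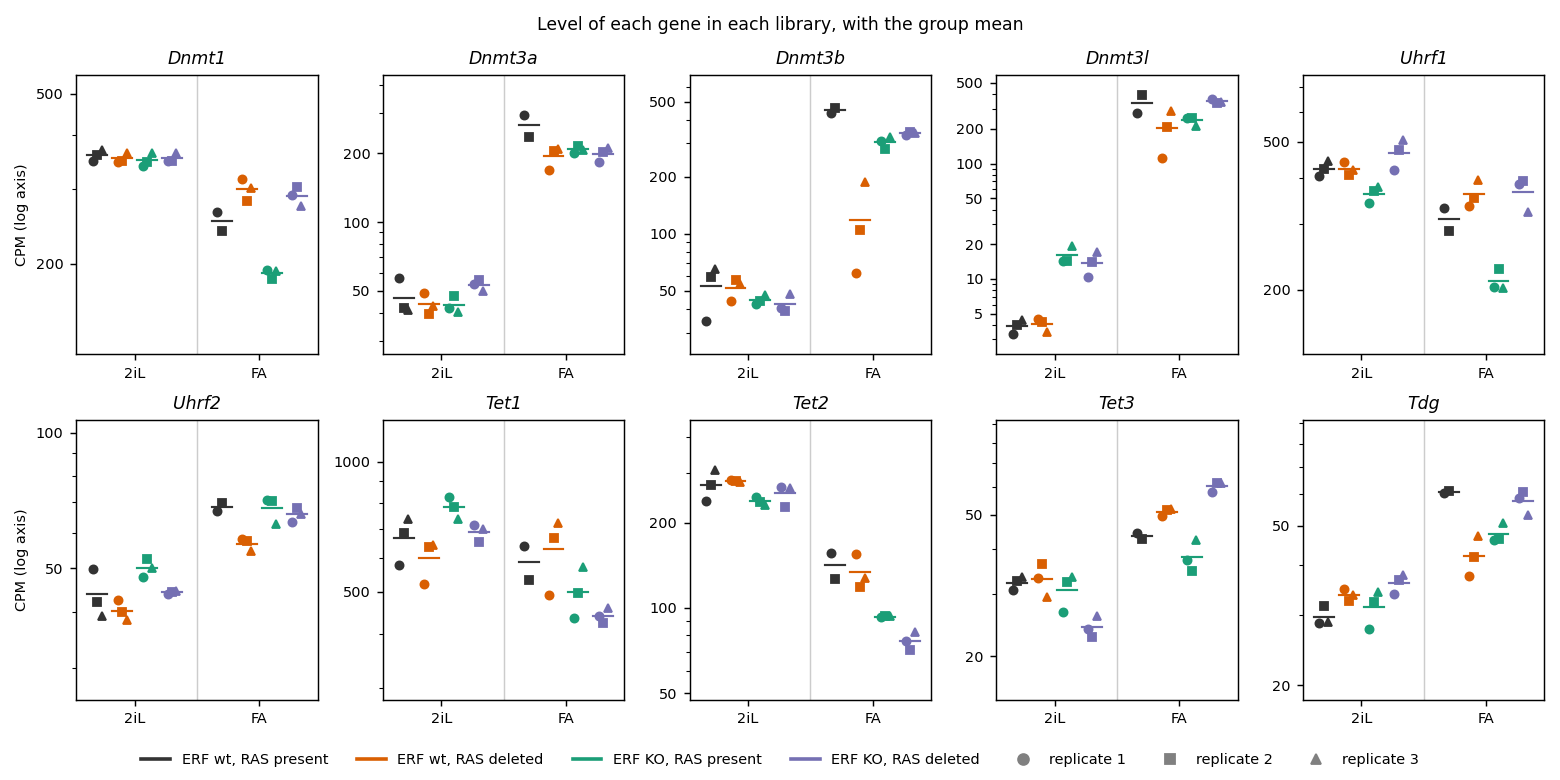
Level in CPM (log axis, a separate scale per gene) of each of the 10 genes in each library, by medium and genotype; symbols give the replicate number and lines the group mean. Dnmt3b in RAS-deleted FA libraries runs from 62.0 to 187.2 CPM, below the other FA groups, and Dnmt3l in 2iL is higher in both groups without ERF.

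Dnmt3l was raised without ERF already in 2iL, the only gene of the 10 to reach 2-fold there. Its ERF-knockout libraries stood at 14.3, 14.2 and 19.5 CPM and its double-mutant libraries at 10.4, 13.9 and 17.1 CPM. The parental libraries stood at 3.36, 3.99 and 4.37 CPM and the RAS-deleted libraries at 4.46, 4.26 and 3.48 CPM. Every library without ERF lay above every library with it. Groups were without overlap for 3 of the 10 genes and 40.9% of all genes with RAS present, and for 6 of the 10 and 53.2% with RAS deleted. The rise was 4.13-fold with RAS present (log2 fold change 2.05, SE 0.32, adjusted p = 0.000167) and 3.38-fold with RAS deleted (1.76, SE 0.33, adjusted p = 0.000501, both by edgeR). In TPM, Dnmt3l was 9.76% ± 1.53 (SD, n = 3) of the DNMT family sum in ERF-knockout 2iL libraries, beside 2.40% ± 0.294 in parental ones. Of the same 4 primitive endoderm markers, 2 passed as higher on ERF knockout in 2iL with RAS present and 0 with RAS deleted, and their sum was 19.8 to 44.9 CPM in ERF-knockout against 11.2 to 19.4 CPM in parental libraries. Of the 3 germ layer markers 2 passed as higher in each comparison, and 1 as lower with RAS deleted, with sums of 15.9 to 22.4 CPM in ERF-knockout against 8.39 to 13.2 CPM in parental libraries and of 14.6 to 18.3 CPM in double-mutant against 4.41 to 6.14 CPM in RAS-deleted ones. Of the 5 naive markers 2 passed as lower in each, with 1 higher when RAS was present and 2 when it was deleted. Of the 3 epiblast-like markers only Otx2 passed, as lower in each (-2.01, SE 0.27, and -1.58, SE 0.30), and of the 3 fibroblast markers tested Thy1 passed as higher and Col1a1 as lower in each. Of the 4 trophoblast markers, 2 and 3 passed as lower in the same comparisons. They summed to 37.3 to 47.1 CPM in ERF-knockout against 107.7 to 125.8 CPM in parental libraries, and Tfap2c alone had means of 40.6 and 111.0 CPM there. The part of these lists in the Dnmt3l result was not tested.

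Dnmt3l still rose in FA without ERF, by 3.89 (SE 0.28) in ERF-knockout and 4.65 (SE 0.29) in double-mutant cells on the log2 scale. The ERF-knockout cells, with a higher 2iL level, had a smaller response than the parental cells, by 2.55 (log2 difference -2.55, SE 0.42, adjusted p = 0.000903, edgeR). Between these cells in FA the difference was -0.50 (SE 0.26, adjusted p = 0.259, edgeR), which passed under another setting. The groups did not overlap there (8 of the 10 genes and 38.9% of all genes). In FA the RAS-deleted libraries held 112.1, 207.2 and 286.6 CPM and overlapped the parental ones (276.4 and 394.4 CPM). The fitted decrease on RAS deletion was 0.73 on the log2 scale (-0.73, SE 0.26, adjusted p = 0.0357, edgeR). It did not pass without the RAS-deleted FA replicate 1 (-0.44, adjusted p = 0.0764), without replicate 2 of that group (adjusted p = 0.0619) or without the parental FA replicate 2 (-0.44, adjusted p = 0.354, each by edgeR). Dnmt3l was higher in double-mutant than in RAS-deleted cells in FA by 0.77 (SE 0.24, adjusted p = 0.0155, edgeR), and the RAS effect differed between the ERF genotypes by 1.27 (SE 0.36, adjusted p = 0.0129, edgeR). The first of these gave an adjusted p of 0.109 and the second of 0.0615 when edgeR was fitted to the compared groups alone, and the second gave 0.0915 without the parental FA replicate 2. Leaving out 1 library moved the first between 0.48 (without the RAS-deleted FA replicate 1) and 1.11 (without replicate 3) and the second between 0.97 and 1.61.

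Dnmt3a rose in FA in every genotype, by 2.15 (SE 0.12), 2.26 (SE 0.12) and 1.90 (SE 0.12) on the log2 scale in RAS-deleted, ERF-knockout and double-mutant cells. In FA the RAS-deleted libraries stood at 168.7, 204.2 and 210.0 CPM, below both parental libraries (-0.45, SE 0.12, adjusted p = 0.00553, edgeR). Groups had no overlap for 7 of the 10 genes and 53.1% of all genes in this comparison. Without the parental FA replicate 1, the highest library of all for Dnmt3a, the difference was -0.26 and did not pass (adjusted p = 0.184, edgeR). Because Dnmt3b fell further than Dnmt3a, the ratio of Dnmt3b to Dnmt3a within a library, in TPM, was 0.547 ± 0.264 (SD, n = 3) in RAS-deleted FA libraries. The same ratio was 1.57 ± 0.379 (n = 2) in parental, 1.51 ± 0.129 (n = 3) in ERF-knockout and 1.65 ± 0.0746 (n = 3) in double-mutant FA libraries, and the RAS-deleted range (0.319 to 0.836) did not meet the others.

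**Figure D3:**
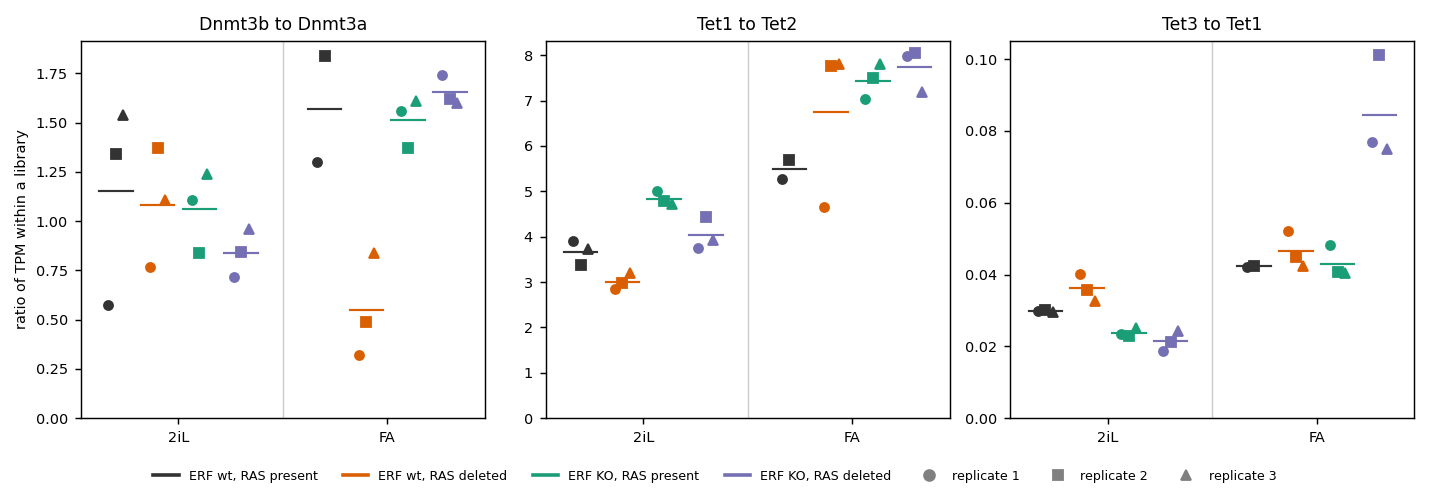
Ratio of TPM between 2 genes within each library (vertical axis, from 0) for Dnmt3b to Dnmt3a, Tet1 to Tet2 and Tet3 to Tet1, by medium and genotype; symbols give the replicate number and lines the group mean. Dnmt3b to Dnmt3a is below 0.836 or at it in the RAS-deleted FA libraries and above 1.30 or at it in the other FA libraries, and Tet3 to Tet1 is highest in double-mutant FA libraries.

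Of the maintenance genes, Dnmt1 and Uhrf1 were lowest in ERF-knockout cells in FA. Dnmt1 stood there at 193.7, 184.5 and 192.4 CPM, against 264.4 and 238.8 CPM in parental FA libraries and 338.4 to 370.0 CPM over all 2iL libraries. Uhrf1 stood at 203.8, 227.8 and 201.9 CPM, against 330.9 and 288.7 CPM in parental FA libraries. Neither group overlapped the parental one, as for 8 of the 10 genes and 38.9% of all genes tested. ERF knockout in FA lowered Dnmt1 by 0.40 (log2 fold change -0.40, SE 0.07, adjusted p = 0.000763) and Uhrf1 by 0.55 (-0.55, SE 0.09, adjusted p = 0.000922, both by edgeR). Without the parental FA replicate 1 neither passed (-0.30, adjusted p = 0.0605 for Dnmt1; -0.42, adjusted p = 0.0563 for Uhrf1, edgeR).

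The double mutants did not show this low level. In FA their libraries held 289.6, 303.0 and 273.4 CPM of Dnmt1 and 385.3, 391.4 and 323.9 CPM of Uhrf1, every one above every ERF-knockout library (7 of the 10 genes and 46.9% of all genes had no overlap here). RAS deletion in FA without ERF thus raised Dnmt1 by 0.60 (SE 0.06, adjusted p = 3.1e-07) and Uhrf1 by 0.80 (SE 0.09, adjusted p = 6.9e-07, both by edgeR). With ERF present it raised Dnmt1 by 0.25 (SE 0.07, adjusted p = 0.0049, edgeR), which was lost without the parental FA replicate 2 (0.19, adjusted p = 0.0894), and Uhrf1 did not pass (0.22, adjusted p = 0.0665, edgeR). The difference between these RAS effects was 0.57 for Uhrf1 (SE 0.13, adjusted p = 0.00152, edgeR) and 0.35 for Dnmt1 (SE 0.09, adjusted p = 0.00547, edgeR), the latter lost without the parental FA replicate 1 (0.25, adjusted p = 0.0795). Without the replicate 1 library of every group the Uhrf1 difference was 0.34 (adjusted p = 0.0739, edgeR).

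Genes of DNA replication moved in the same comparisons. Of 12 S phase genes (the Mcm2 to Mcm7 helicase subunits, Ccne1, Ccne2, Cdc6, Cdt1, Gins2 and Rrm2), 10 passed as lower and 0 as higher on ERF knockout in FA with RAS present (median log2 fold change -0.48, beside 0 over all genes, of which 9.78% passed). On RAS deletion in FA without ERF, 10 passed as higher and 0 as lower (median 0.52, with 26.4% of all genes passing), and Cdc6 alone passed 2-fold (1.19, SE 0.15). They summed to between 1376 and 1401 CPM in ERF-knockout FA libraries, against 1889 to 2089 CPM in parental and 1800 to 2095 CPM in double-mutant FA libraries. Of the 4 primitive endoderm markers 3 passed as lower on RAS deletion in FA without ERF, with sums of 44.2 to 54.3 CPM in ERF-knockout and 10.4 to 19.2 CPM in double-mutant libraries. Of the 5 naive markers 2 passed as higher and 1 as lower in that comparison, and of the 3 epiblast-like markers 2 passed as higher. The trophoblast and the general pluripotency markers each gave 1 higher and 1 lower, and the germ layer and the fibroblast markers each gave 1 higher. Other comparisons varied in whether the S phase list, Dnmt1 and Uhrf1 moved together. Between the media in ERF-knockout cells, 2 of the 12 S phase genes passed as higher and 6 as lower (median -0.32, with 46.9% of all genes passing). Dnmt1 was at -0.88 and Uhrf1 at -0.78 there. Between the media in parental cells, where Dnmt1 and Uhrf1 fell, 3 passed as higher and 2 as lower (median 0.03, with 49.5% of all genes passing). On ERF knockout in 2iL with RAS present 6 passed as lower and 0 as higher (median -0.28, with 27.8% of all genes passing). Dnmt1 was at -0.04 in that comparison and Uhrf1 at -0.22 (adjusted p = 0.0533, edgeR). In FA, Dnmt1 and Uhrf1 were low in the same ERF-knockout libraries as the S phase genes, and the part of replication or of these markers in their levels was not tested. Uhrf2 rose in FA in each genotype, by 0.44 to 0.64 on the log2 scale, without an ERF-knockout low of this kind (71.0, 70.5 and 62.7 CPM, beside 67.0 and 69.7 CPM in parental FA libraries).

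Dppa3, whose product displaces UHRF1 from chromatin, followed ERF in 2iL. It stood at 28.9 ± 1.33 CPM (SD, n = 3) in parental and 51.2 ± 3.55 CPM in RAS-deleted 2iL libraries, and at 1.55 ± 0.834 and 1.38 ± 0.639 CPM in ERF-knockout and double-mutant ones. The log2 fold change on ERF knockout was -4.20 (SE 0.26, adjusted p = 8.31e-10) with RAS present and -5.20 (SE 0.27, adjusted p = 5.06e-11, both by edgeR) with RAS deleted. Displacement acts on the UHRF1 protein, so the RNA level of Uhrf1 cannot show it. That RNA level did not pass in either comparison (-0.22, adjusted p = 0.0533, and 0.14, adjusted p = 0.199, edgeR). The first passed by DESeq2 (adjusted p = 0.0493) and with only those groups fitted (edgeR adjusted p = 0.039), and the second, of opposite sign, passed without the replicate 1 library of every group (0.26, adjusted p = 0.0227, edgeR). In FA, Dppa3 was 21.1 ± 1.72 CPM in RAS-deleted libraries, above 4.04 ± 0.376 CPM in parental, 4.55 ± 1.17 CPM in ERF-knockout and 1.59 ± 0.530 CPM in double-mutant ones. With RAS present it did not pass for ERF knockout in FA (0.17, adjusted p = 0.756, edgeR).

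The 3 oxidase genes responded differently to the medium. Tet2 fell in every genotype, and furthest in the double mutants, from 268.2, 227.9 and 265.4 CPM to 76.3, 71.1 and 82.4 CPM (-1.73, SE 0.10, adjusted p = 1.82e-12, edgeR). It fell by 1.35 (SE 0.10) in ERF-knockout and by 1.07 (SE 0.10) in RAS-deleted cells. In FA both groups without ERF lay below both groups with it, at 92.6, 93.4 and 93.6 CPM in ERF-knockout libraries and at 154.4, 118.9 and 127.3 CPM in RAS-deleted ones. Groups had no overlap for 8 of the 10 genes and 38.9% of all genes with RAS present, and for 7 of the 10 and 51.2% with RAS deleted. ERF knockout in FA lowered Tet2 by 0.80 with RAS deleted (-0.80, SE 0.10, adjusted p = 6.6e-07, edgeR) and by 0.61 with RAS present (-0.61, SE 0.11, adjusted p = 0.00141, edgeR), the second lost without the parental FA replicate 1 (-0.42, adjusted p = 0.0992).

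Tet1 fell in FA in the groups without ERF, by 0.65 (SE 0.12, adjusted p = 0.000192) in ERF-knockout and 0.64 (SE 0.12, adjusted p = 0.000156, edgeR) in double-mutant cells. With ERF it was -0.18 in parental cells, which passed under 3 of the other settings, and 0.06 in RAS-deleted cells (95% interval -0.18 to 0.31), which did not pass. The medium responses of double-mutant and RAS-deleted cells differed by 0.71 (log2 difference -0.71, SE 0.18, adjusted p = 0.00466, edgeR), whereas those of ERF-knockout and parental cells differed by -0.46 (adjusted p = 0.13, edgeR), which passed without the count filter (adjusted p = 0.00401). Because Tet2 fell more than Tet1, the ratio of Tet1 to Tet2 in TPM went from 3.67 ± 0.275 (SD, n = 3) to 5.49 ± 0.292 (n = 2) in parental cells and from 4.04 ± 0.349 to 7.75 ± 0.480 (n = 3 each) in double mutants.

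Tet3, the least abundant of the 3 per length, had its widest change in the double mutants. Its libraries stood at 23.8, 22.6 and 25.9 CPM in 2iL, the lowest of any group, and at 58.1, 61.6 and 61.4 CPM in FA, the highest of any group (1.32, SE 0.09, adjusted p = 4.16e-11, edgeR). In ERF-knockout cells it went from 26.6, 32.4 and 33.4 CPM to 37.3, 34.7 and 42.5 CPM (0.31, SE 0.09, adjusted p = 0.00729, edgeR), a rise lost without the ERF-knockout 2iL replicate 1 (0.20, adjusted p = 0.0851), without the FA replicate 3 (0.21, adjusted p = 0.0809) and with the length offset (0.22, adjusted p = 0.0998). The difference between these responses was 1.01 (SE 0.13, adjusted p = 2.6e-05, edgeR). In FA, RAS deletion without ERF raised Tet3 by 0.66 (SE 0.09, adjusted p = 1.31e-05, edgeR), and with ERF it did not pass (0.23, adjusted p = 0.0709). In 2iL, ERF knockout with RAS deleted lowered it by 0.45 (-0.45, SE 0.09, adjusted p = 0.00053, edgeR).

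Tdg rose in FA in every genotype but least in RAS-deleted cells (0.33, SE 0.09, beside 1.03 in parental cells). In FA its RAS-deleted libraries stood at 37.4, 41.7 and 47.2 CPM, below both parental libraries at 60.2 and 61.1 CPM (-0.53, SE 0.09, adjusted p = 9.27e-05, edgeR). Groups had no overlap for 7 of the 10 genes and 53.1% of all genes in this comparison. The ERF-knockout libraries stood at 46.1, 46.3 and 50.9 CPM and the double mutants at 58.6, 60.8 and 53.2 CPM. The medium response was smaller by 0.71 in RAS-deleted than in parental cells (log2 difference -0.71, SE 0.13, adjusted p = 0.000253, edgeR), and the RAS effect in FA differed between the ERF genotypes by 0.79 (SE 0.13, adjusted p = 5.17e-05, edgeR).

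**Figure D4:**
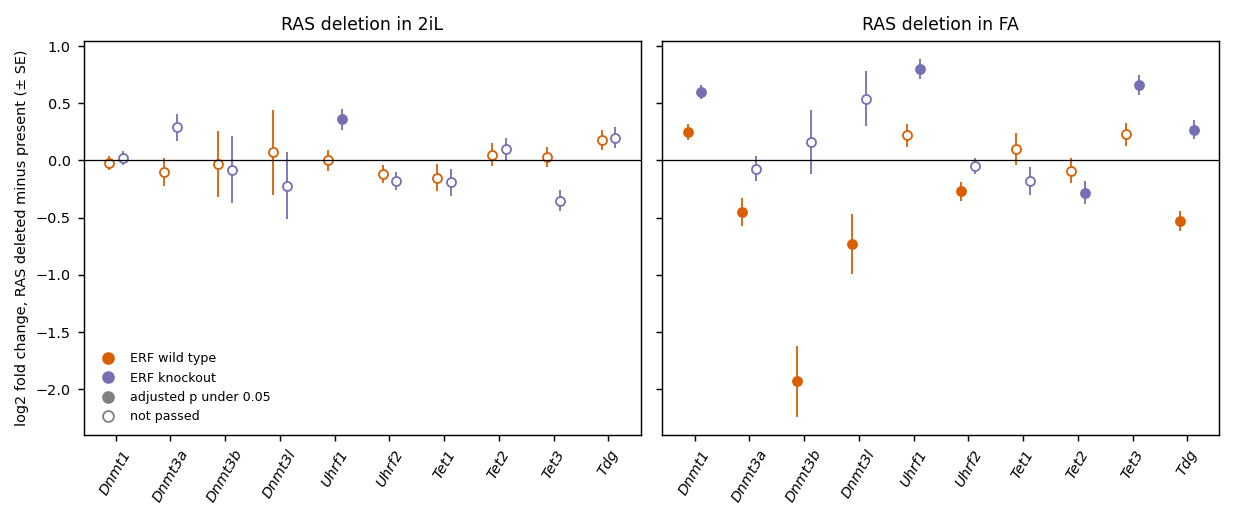
Log2 fold change on RAS deletion (vertical axis, with SE) for each of the 10 genes in 2iL and in FA, with ERF wild type and with ERF knockout; filled points passed at an adjusted p under 0.05. In 2iL only Uhrf1 with ERF knockout is filled, and in FA Dnmt3b is at -1.93 with ERF and at 0.16 without it.

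The count of genes that changed on RAS deletion in 2iL without ERF depended on the settings of the fit. With ERF present 0 passed by edgeR (1 at an unadjusted p under 0.05, and 0 by DESeq2), against 5.7% of all genes, and 0 reached 2-fold, against 1.2%. With ERF knocked out 1 passed, Uhrf1 (0.36, SE 0.09, adjusted p = 0.0338, edgeR), against 1.31%, and 0 reached 2-fold, against 0.211%. The Uhrf1 call was lost when any of 5 of the 6 compared libraries was left out (adjusted p from 0.0739 to 0.19, the exception being the double-mutant replicate 1). In a fit of these groups alone that was also blocked by replicate number, Dnmt3a (0.28), Tdg (0.19), Uhrf2 (-0.19), Tet1 (-0.20) and Tet3 (-0.36) passed as well, with edgeR adjusted p from 0.000593 to 0.0302. The part of the block and that of the restriction to these groups are not separated here. In that fit 3289 of 16491 genes tested passed. With ERF present the blocked fit passed 0 of the 10 genes and 2773 of 16778 in all. In the model of all groups the RAS effect in 2iL did not pass as different between the ERF genotypes for any of the 10 genes (0 passed by edgeR and 3 at an unadjusted p under 0.05, against 1.57% of all genes, and 0 at 2-fold, against 0.378%). Under other settings Uhrf1 passed, with the replicate block in a fit of these groups (0.36, adjusted p = 0.0374) and without the count filter (0.38, adjusted p = 0.0364, both by edgeR).

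ERF knockout in 2iL changed 1 of the 10 genes with RAS present, Dnmt3l, against 27.8% of all genes, and the same gene reached 2-fold, against 9.72%. With RAS deleted, 2 passed, Dnmt3l higher and Tet3 lower, against 39.1%, and 1 reached 2-fold, against 13%. Dnmt1, Dnmt3a and Dnmt3b did not pass in either comparison, with log2 fold changes from -0.29 to 0.28.

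These counts in 2iL moved with the settings. With RAS present, Uhrf2 passed as higher on 6 settings (0.21 to 0.35), among them the upper-quartile factors, and Tet2 as lower on leaving out the replicate 1 libraries of the groups with ERF (-0.26) or of every group (-0.29). Dnmt3b (-0.25, edgeR adjusted p = 0.0344) and Tet1 (0.23, edgeR adjusted p = 0.0299) passed without the count filter. With RAS deleted, Dnmt3a passed as higher on 6 settings (0.29 to 0.38), Dnmt3b as lower on 3 (-0.28 to -0.27) and Tet1 as higher on 4 (0.21 to 0.30). Both Dnmt3 genes and Tet1 passed there when edgeR was fitted to the compared groups alone (adjusted p = 0.00707, 0.0459 and 0.0318 for Dnmt3a, Dnmt3b and Tet1). Uhrf2 (0.19, edgeR adjusted p = 0.0338) passed without the replicate 1 libraries of the groups with ERF, and Tdg (0.28, edgeR adjusted p = 0.0401) with the length offset.

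In FA, RAS deletion with ERF present changed 6 of the 10 genes (Dnmt1 higher, Dnmt3a, Dnmt3b, Dnmt3l, Uhrf2 and Tdg lower), against 41.3% of all genes, and 1 reached 2-fold, against 17.3%. With ERF knocked out it changed 5 (Dnmt1, Uhrf1, Tet3 and Tdg higher, Tet2 lower), against 26.4%, and 0 at 2-fold, against 6.88%. ERF knockout with RAS present changed 4, all lower (Dnmt1, Uhrf1, Tet2 and Tdg), against 9.78%, and 0 at 2-fold, against 2.36%. With RAS deleted it changed 7 (Dnmt3b, Dnmt3l, Uhrf2, Tet3 and Tdg higher, Tet1 and Tet2 lower), against 42.8%, and 1 reached 2-fold, against 16.6%.

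The direct tests of differences ran as follows. The RAS effect in FA differed between the ERF genotypes for 6 of the 10 genes, each more positive without ERF (Dnmt1, Dnmt3b, Dnmt3l, Uhrf1, Tet3 and Tdg), against 28.0% of all genes, and for 2 by at least 2-fold (13.7%). The medium response differed with RAS for 3 genes when ERF was present (Dnmt1, Dnmt3b and Tdg; 24.5%), 1 of them by 2-fold (11.9%), and for 3 when ERF was absent (Dnmt1, Uhrf1 and Tet3; 13.1%), 1 of them by 2-fold (4.59%). It differed with ERF for 3 genes when RAS was present (Dnmt1, Dnmt3l and Tdg; 9.34%), 1 of them by 2-fold (4.27%), and for 5 when RAS was deleted (Dnmt3b, Tet1, Tet2, Tet3 and Tdg; 26.4%), 1 of them by 2-fold (11.3%).

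Several of the smaller changes rested on few libraries: the Tdg decrease on ERF knockout in FA (-0.34, adjusted p = 0.0229, edgeR) was lost on leaving out either parental FA library (adjusted p = 0.174 and 0.0897) or the ERF-knockout FA replicates 1 (0.0757) or 2 (0.107). On RAS deletion in FA with ERF present, the Uhrf2 decrease (-0.27, edgeR adjusted p = 0.0121) was lost without the parental FA replicate 2 (0.111) and was -0.10 with the length offset (0.432). Without ERF, the Tdg rise (0.27, edgeR adjusted p = 0.0221) was lost without replicate 1 or 2 of either group (0.0821 to 0.115), and the Tet2 decrease (-0.28, edgeR adjusted p = 0.0371) without any ERF-knockout library or the double-mutant replicates 1 or 2 (0.0738 to 0.141). On ERF knockout in FA with RAS deleted, the Tet3 rise (0.24, edgeR adjusted p = 0.0315) was lost without the RAS-deleted replicates 1 or 2 or the double-mutant replicates 2 or 3 (0.0627 to 0.09), and the Uhrf2 rise (0.22, edgeR adjusted p = 0.0236) without the RAS-deleted replicate 3 (0.0766) or the double-mutant replicate 2 (0.0817). The Uhrf1 decrease between the media in RAS-deleted cells (-0.23, edgeR adjusted p = 0.0362) was lost without the 2iL replicates 1 or 3 or the FA replicates 1 or 2 (0.0682 to 0.128).

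Some of the tested differences also rested on few libraries. The Tet3 difference in RAS effect in FA (0.43, edgeR adjusted p = 0.0173) was lost without the parental FA replicate 1 (0.0916) or the ERF-knockout FA replicate 2 (0.0769). For the medium response, the Dnmt1 difference with ERF and RAS present (-0.36, edgeR adjusted p = 0.0125) was lost without the parental FA replicate 1 (0.12), and the Tdg difference in that comparison (-0.43, edgeR adjusted p = 0.0397) on leaving out any of 8 of 11 libraries (0.0705 to 0.115). The Dnmt1 difference with RAS when ERF was present (0.28, edgeR adjusted p = 0.0301) was lost for 6 of 11 libraries (0.0507 to 0.155), the Uhrf1 difference with RAS when ERF was absent (0.43, edgeR adjusted p = 0.0206) for 5 of 12 (0.0509 to 0.0675), and the Tdg difference with ERF when RAS was deleted (0.35, edgeR adjusted p = 0.0364) for 8 of 12 (0.0632 to 0.11).

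Leaving out the replicate 1 libraries of the 4 groups with ERF, a setting chosen after seeing the data, changed further calls by edgeR. On RAS deletion in FA with ERF present, Tet1 (0.39, adjusted p = 0.00806) and Uhrf1 (0.39, adjusted p = 0.0105) then passed as higher and Dnmt3a no longer passed (-0.17, adjusted p = 0.164). The RAS effect on Tet1 in FA then differed between the ERF genotypes by -0.59 (adjusted p = 0.00247), and its medium response differed with RAS in the presence of ERF by 0.54 (adjusted p = 0.00812). In the cells without ERF, RAS deletion then passed for Dnmt3l in FA (0.54, adjusted p = 0.0116) and for Dnmt3a (0.29, adjusted p = 0.0148) and Tet3 (-0.35, adjusted p = 0.0343) in 2iL. On ERF knockout in 2iL, Uhrf1 (-0.24, adjusted p = 0.0325) passed with RAS present, as did Uhrf2 and Tet2 above, and Dnmt3a (0.38, adjusted p = 0.000397) passed with RAS deleted, as did Uhrf2.

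The same setting added differences in the medium response. With RAS they were 0.45 for Uhrf1 in the presence of ERF (adjusted p = 0.0287) and, in its absence, -0.37 for Dnmt3a (adjusted p = 0.00638), 0.76 for Dnmt3l (adjusted p = 0.0368) and -0.38 for Tet2 (adjusted p = 0.00438, each by edgeR). With ERF, in RAS-deleted cells, they were -0.43 for Dnmt3a (adjusted p = 0.00284) and -1.34 for Dnmt3l (adjusted p = 0.0056, both by edgeR). The calls lost were Uhrf1 between the media in RAS-deleted cells (-0.15, adjusted p = 0.207), Tdg on ERF knockout in FA with RAS present (-0.33, adjusted p = 0.0776), Tet3 on ERF knockout in FA with RAS deleted (0.22, adjusted p = 0.069) and the Tet3 difference in RAS effect in FA (0.36, adjusted p = 0.109, each by edgeR). The medium by ERF differences of Dnmt1 (-0.25, adjusted p = 0.0979) and Tdg (-0.40, adjusted p = 0.08) with RAS present and of Tdg with RAS deleted (0.25, adjusted p = 0.155) were lost too.

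Genes that act with the 10 enzymes shifted in both directions between the media in parental cells, where 49.5% of all genes passed. Of 10 maintenance partners 5 passed as higher and 4 as lower, with Pclaf, a replication clamp partner, up by 1.64 (SE 0.16), Cdca7l up by 1.40 (SE 0.11) and Dppa3 down to a log2 fold change of -2.84 (SE 0.27). Of 9 genes of de novo recruitment and repression 2 passed as higher and 5 as lower, led by Prdm14 (-5.61, SE 0.30) and Zfp57 (-1.96, SE 0.11), a zinc finger protein that protects imprints. Of 14 demethylation partners and base excision repair genes 5 passed as higher and 6 as lower, among them Gadd45b (-3.95, SE 0.24) and Gadd45g (1.58, SE 0.38). Cxxc4, a binder of CpG DNA and TET2, had at most 2 counts in any parental 2iL library and stood at 1.61 and 2.27 CPM in FA, so no fold is given for it. Of 8 methyl-CpG readers 1 passed as higher and 4 as lower, none by 2-fold, and of 7 methyl donor genes 2 passed as higher and 1 as lower. Trdmt1, an RNA methyltransferase of the family, and Dnmt3c, a germ line relative of Dnmt3b, did not pass. Dnmt3c had at most 16 counts in any library, and its 2 calls in FA, higher in RAS-deleted than in parental cells and lower in double-mutant than in RAS-deleted cells, rest on means of 0.421, 0.036 and 0.0947 CPM in RAS-deleted, parental and double-mutant libraries.

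On RAS deletion in FA with ERF present the recruitment and repression list moved mostly upward, with 7 of 9 genes passing as higher and 1 as lower (median log2 fold change 0.47, beside 0 over all genes, of which 41.3% passed). Prdm14 was higher by 5.26 (SE 0.30, adjusted p = 2.06e-11, edgeR) and Zfp57 by 1.67 (SE 0.11, adjusted p = 2.34e-11, edgeR). Among the maintenance partners, 3 passed as higher and 4 as lower, with Dppa3 at 2.39 (SE 0.26) and Cdca7l at -1.89 (SE 0.11). Of the demethylation partners 5 of 14 passed as higher and 0 as lower, with Gadd45b at 3.42 (SE 0.24) and Gadd45g at 1.23 (SE 0.36). With ERF also knocked out, the differences between double-mutant and RAS-deleted cells in FA were -4.62 (SE 0.23) for Prdm14, -3.74 (SE 0.25) for Dppa3 and 1.79 (SE 0.11) for Cdca7l, each passing by edgeR. Pclaf (1.26, SE 0.14) and Cxxc4 (1.89, SE 0.35) were higher and Zfp57 (-1.17, SE 0.09), Gadd45b (-1.98, SE 0.18) and Gadd45g (-1.23, SE 0.31) lower in the same comparison.

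The genes whose levels followed those of Dnmt3b most closely over the 23 libraries, by Pearson's r of log2(CPM + 1) among 11215 genes, were Arid2 (0.982), Xist (0.981) and Pou3f1 (0.981). For Dnmt3a they were Skil (0.983), Helz2 (0.982) and Mmp25 (0.981), and for Dnmt3l Clcn5 (0.988), Odc1 (0.985) and Klhl7 (0.984). For Tet2 they were Dsg2 (0.965), Jak3 (0.962) and Tdh (0.960). These correlations describe points that share libraries and run over both media, and none was computed within a medium.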

How the data were processed

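RNA was sequenced from 23 libraries, as described above. Per the submitters' processing notes, bcl2fastq 2.20.0, fastp 0.20.0 and Salmon were used with the build mm10; no version is given for Salmon, and other settings are not given in the sources used here. The authors deposited, per the file headers, an estimated count, a TPM value and an effective length per gene and library, and a matrix that equals the rounded estimated counts (0 cells differ). The submitters' labels name a strand-specific, ribosome-depleted library kit.

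Rounded counts were scaled by TMM and tested with edgeR 4.0.16 (R 4.3.3) after filterByExpr, in 1 quasi-likelihood model with a coefficient for each of 8 groups, for 12 comparisons and 6 differences between them. P-values were Benjamini-Hochberg adjusted over 20372 genes, and a gene passed under 0.05. Each SE was obtained from the log2 fold change and the F value of its test. The scripts were tested on simulated data. CPM compares a gene across libraries, and the deposited TPM compares genes. All 10 genes, Dppa3, Prdm14 and, where a list is described for a comparison, its genes past 2-fold (at most 3) are named; Cxxc4 and Dnmt3c get no fold where a group is near 0 counts; the genes and lists were chosen with earlier results of these data known. Erf, Hras and Nras were checked, and another targeted gene is left out here. Coordinates are GRCm38, the mm10 build.

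Same-numbered libraries deviated together (every correlation above 0.1, with 3 pairs) for the medium in RAS-deleted (0.20 to 0.42), ERF-knockout (0.20 to 0.36) and double-mutant cells (0.19 to 0.33), and for RAS deletion in 2iL with ERF (0.36 to 0.55) and without it (0.37 to 0.54). In the other 7 comparisons the numbers did not pair the libraries. Alternatives were other size factors, DESeq2 1.42.0, no count filter, a length offset, the abundant gene Gm26917 left out, fewer groups, the replicate block, and libraries left out.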

Additional observations from a re-analysis of the deposited data

Results flagged for a closer look

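In 6 cases the effect of 1 factor on a gene differed by at least 2-fold between the levels of another, by the interaction test of edgeR. For Dnmt3b the RAS effect in FA differed between the ERF genotypes by 2.09 (log2, SE 0.41, adjusted p = 0.00118), the medium response differed with RAS in the presence of ERF by -1.90 (SE 0.42, adjusted p = 0.00328), and it differed with ERF in the absence of RAS by 1.81 (SE 0.41, adjusted p = 0.00325). These 3 values share libraries, among them the RAS-deleted FA group, whose Dnmt3b levels run from 62.0 to 187.2 CPM.

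For Dnmt3l the RAS effect in FA differed between the ERF genotypes by 1.27 (SE 0.36, adjusted p = 0.0129, edgeR), and the medium response differed with ERF in the presence of RAS by -2.55 (SE 0.42, adjusted p = 0.000903, edgeR). For Tet3 the medium response differed with RAS in the absence of ERF by 1.01 (SE 0.13, adjusted p = 2.6e-05, edgeR).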

How the results depend on the processing

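Of 180 gene results, 84 passed; 57 of these stayed on the same side of the threshold under every alternative, 27 did not under at least 1, 40 that had not passed did under at least 1, and 0 called values reversed. Counts at 2-fold became, with no minimum fold, 9, 9, 10 and 10 for the medium in parental, RAS-deleted, ERF-knockout and double-mutant cells, 1 for RAS deletion in 2iL without ERF, 2 for ERF knockout in 2iL with RAS deleted, 6 and 5 for RAS deletion in FA with and without ERF, 4 and 7 for ERF knockout in FA with RAS present and deleted, and 6, 3, 3, 3 and 5 for the differences. With only the compared groups, the count for the RAS by ERF difference in FA was 1. With the replicate block as well it was 1, and RAS deletion in FA with ERF gave 2. The replicate numbers do not pair the libraries there. Under each of these settings Dnmt3b no longer passed for the medium in RAS-deleted cells, where the replicate numbers do pair the libraries. Without the replicate 1 libraries of the groups with ERF, or of every group (both chosen after seeing the data), the medium by ERF difference with RAS deleted gave 2.

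Leaving out 1 library gave counts of 4 to 5, 3 to 4, 4 and 5 for the medium in the same order, 1 to 2 for RAS deletion in FA with ERF, 1 to 2 for ERF knockout in FA with RAS deleted, 1 to 2 for the RAS by ERF difference in FA, 1 to 2 for the medium by RAS difference with ERF, 0 to 1 without ERF, and 1 to 2 for the medium by ERF difference with RAS deleted. The others kept their count. The parental FA group has 2 libraries, so leaving out either assumes that the other varies like the rest. A change of the size factors moved the median of all genes by at most 0.06 (log2). The cause of these changes was not tested.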
